A study of Mus musculus with 4 samples.

Results

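The genes described here are 39 interferon-stimulated genes (ISGs) of the mouse, taken as a fixed list of gene names, of 22238 protein-coding genes in the mm9 annotation. Peaks of JunB, BATF and IRF4 were assigned to a gene when the centre of the peak lay within 20 kb of one of its annotated transcription start sites (TSSs). All 39 names were found in the annotation, and a peak near several of these genes was counted once. In this way 41 of 29659 JunB peaks, 23 of 13570 BATF peaks, 67 of 31093 IRF4 peaks from *Junb*-sufficient cells and 68 of 29033 IRF4 peaks from *Junb*-deficient cells were assigned to ISGs.

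The peaks came from chromatin immunoprecipitation-sequencing (ChIP-seq) of splenic CD4+CD25+ regulatory T (Treg) cells of C57BL/6 mice, activated in culture with anti-CD3 and anti-CD28 antibodies and IL-2 for 60 h, with 1 library for each of 4 conditions. The labels give the genotypes as Foxp3cre JUNB+/+ for the 3 *Junb*-sufficient libraries and Foxp3cre JUNBFl/Fl for the *Junb*-deficient IRF4 library, whereas the study's account of the ChIP-seq has floxed *Junb* mice with *Cd4*Cre as the deficient line and floxed mice without Cre as controls. Deletion by *Cd4*Cre takes in all T cells from the thymus on and deletion by *Foxp3*Cre the Foxp3-expressing cells, and which of them applied was not settled here. An antibody field in the labels exchanges BATF and IRF4 for the *Junb*-sufficient cells. The sample titles were followed, and the exchange was computed for the shares of genes with a peak, the overlaps, the peaks found in 1 genotype only and the motif shares. For promoter positions, covered promoter ISREs and places in the *Junb*-sufficient IRF4 list, the exchange would put the values of the BATF list in place of those given for IRF4. Treg identity and loss of JunB could not be checked in these lists, since they hold neither transcript levels nor a JunB library from *Junb*-deficient cells.

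Type I interferons signal through JAK kinases to the complex ISGF3, which contains STAT2 and IRF9 and binds the interferon-stimulated response element (ISRE) in the promoters of ISGs. IRF4 belongs to the same family of factors as IRF9. It binds poorly to DNA by itself in lymphocytes and is known to bind beside BATF and Jun proteins at composite AP-1-IRF elements (AICEs), but it can also bind ISREs.

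ISREs were searched as GAAA, any 2 bases and GAAA on either strand, within 250 bp before and 50 bp after each annotated TSS of the mm9 (NCBIM37) genome. A match lay in such a promoter in 25 of the 39 ISGs (64.1%), beside 7.99% of all protein-coding genes and 3.65% of all promoters of this length. The following sites lay in ISG promoters under a *Junb*-sufficient IRF4 peak, and show what these peaks covered. They are printed 5′ to 3′ on the strand that reads GAAA, with the matches in capitals.
Ifit1 (chr19:34715263-34715315, minus strand): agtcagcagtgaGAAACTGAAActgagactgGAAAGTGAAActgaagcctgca
Isg15 (chr4:155574972-155575017, minus strand): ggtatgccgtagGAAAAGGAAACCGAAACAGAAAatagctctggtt
Bst2 (chr8:74061474-74061513, minus strand): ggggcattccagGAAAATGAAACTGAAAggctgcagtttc
Rsad2 (chr12:27141416-27141449, plus strand): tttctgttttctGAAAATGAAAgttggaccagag
Zbp1 (chr2:173044448-173044487, plus strand): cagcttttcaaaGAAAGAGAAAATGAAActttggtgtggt

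These sites lay between 62 and 161 bp upstream of the TSS, from the Ifit1 and Isg15 sites nearest to it to the Bst2 site farthest from it. In Ifit1, Isg15, Bst2 and Rsad2, the *Junb*-deficient IRF4 list held a peak over the same site. The Zbp1 site was covered by an IRF4 peak in *Junb*-sufficient cells only, and the *Junb*-deficient peak at this gene was centred 348 bp downstream of the TSS. The caller kept peaks of the *Junb*-deficient list at least 1210 bp apart, so it could not list a second one over the Zbp1 site. A further site, in the promoter of Irf7, was covered in *Junb*-deficient cells only.
Irf7 (chr7:148451987-148452020, plus strand): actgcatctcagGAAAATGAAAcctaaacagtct
By contrast, the promoter ISREs of Usp18, Ifit3 and Oas2 printed next lay under no peak of any list, although they hold the same core.
Usp18 (chr6:121195853-121195886, plus strand): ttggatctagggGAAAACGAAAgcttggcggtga
Ifit3 (chr19:34657851-34657918, minus strand): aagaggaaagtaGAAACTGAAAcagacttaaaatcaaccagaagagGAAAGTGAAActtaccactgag
Oas2 (chr5:121199912-121199945, plus strand): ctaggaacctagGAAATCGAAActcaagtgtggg

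Of the 25 ISGs with a promoter ISRE, 14 had at least 1 such site under a *Junb*-sufficient IRF4 peak and 12 under a *Junb*-deficient one, with 11 in both. Of the 1777 protein-coding genes with a promoter ISRE, 12.4% and 14.4% had one so covered. A JunB peak covered the promoter ISRE of 3 of these ISGs, beside 2.08% of the 1777 genes, and a BATF peak that of 3, beside 2.87%. Presence of the match in this promoter window did not by itself separate ISGs with an IRF4 peak within 1 kb from those without. An IRF4 peak lay within 1 kb of a TSS in 17 of the 25 ISGs with a promoter ISRE and in 10 of the 14 without. In *Junb*-deficient cells these were 17 of 25 and 13 of 14. The window searched is narrower than 1 kb. Among the ISGs counted as without, Mx2, Stat2 and Psmb9 had an IRF4 peak within 1 kb that held an ISRE match outside the window. Among all protein-coding genes these shares were 33.6% with and 24.1% without a promoter ISRE.

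Nearly all ISGs had an IRF4 peak within 20 kb. In *Junb*-sufficient cells 37 of 39 had at least 1 (94.9%, exact Clopper-Pearson 95% interval 82.7 to 99.4), beside 60.4% of all protein-coding genes. In *Junb*-deficient cells 36 of 39 did (92.3%, 79.1 to 98.4), beside 59.9%. JunB peaks were found near 24 ISGs (61.5%, 44.6 to 76.6), beside 42.1%, and BATF peaks near 16 (41.0%, 25.6 to 57.9), beside 30.3%. Both IRF4 shares and the JunB share had intervals that lay above the share of all genes, whereas the interval of the BATF share held it. These intervals cover counting error over genes only, and neighbouring ISGs share peaks. With the 39 genes merged into 32 loci whose windows do not overlap, 31 loci held an IRF4 peak. With BATF and IRF4 exchanged, the IRF4 share was 41.0% and the BATF share 94.9%. At 100 kb the JunB and BATF shares were 94.9% and 76.9% (beside 82.3% and 65.2%). The JunB share was 38.5% with lists of equal length (beside 23.9%), and the BATF share was 17.9% in the first 50% of its list (beside 15.3%).

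**Figure D1:**
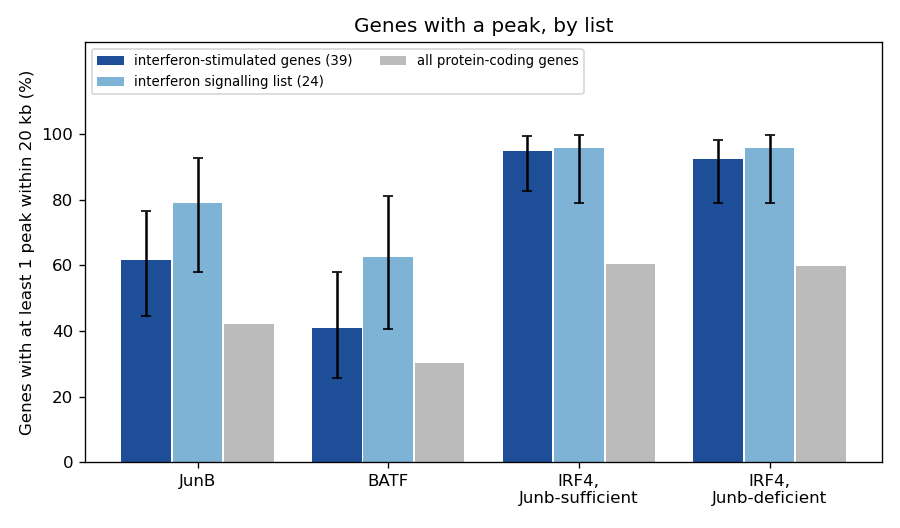
Share of genes with at least 1 peak within 20 kb of a TSS (vertical axis, percent) in each of the 4 peak lists (horizontal axis), for the 39 interferon-stimulated genes, a list of 24 interferon signalling genes and all 22238 protein-coding genes. Error bars are exact 95% intervals over genes. In both IRF4 lists over 92% of the interferon-stimulated genes had a peak, beside about 60% of all genes.

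ISGs also had more IRF4 peaks per gene. They had a median of 2 *Junb*-sufficient IRF4 peaks (mean 1.97) beside a median of 1 (mean 1.21) over all protein-coding genes, and 28 of 39 had 2 or more (71.8%, beside 34.5%). In the *Junb*-deficient list the mean was 2.18 beside 1.17. For JunB the means were 1.21 and 0.819, and for BATF 0.615 and 0.439. In the list of 24 interferon signalling genes described at the end, the means were 2.63 and 2.50 for the IRF4 lists, 1.92 for JunB and 1.21 for BATF.

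The IRF4 peaks lay near the start sites. Of the 67 *Junb*-sufficient IRF4 peaks, 28 were centred within 1 kb of a TSS of an ISG (41.8%, 29.8 to 54.5), while 29.2% of IRF4 peaks near any protein-coding gene were as close to a TSS. Counted by gene, 27 of 39 ISGs (69.2%) had an IRF4 peak within 1 kb, beside 24.8% of all genes, and 30 (76.9%) had one in *Junb*-deficient cells, beside 27.3%. Within 1 kb lay 11 of 41 JunB peaks (26.8%, 14.2 to 42.9, beside 13.4%) and 7 of 23 BATF peaks (30.4%, 13.2 to 52.9, beside 1060 of 7054). By gene these were 9 of 39 ISGs for JunB (23.1%, beside 7.73%) and 7 for BATF (17.9%, beside 4.99%). The map of peaks by distance from the TSS shows the IRF4 peaks of both genotypes stacked at the TSS of most ISGs, with JunB and BATF beside them at few.

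**Figure D2:**
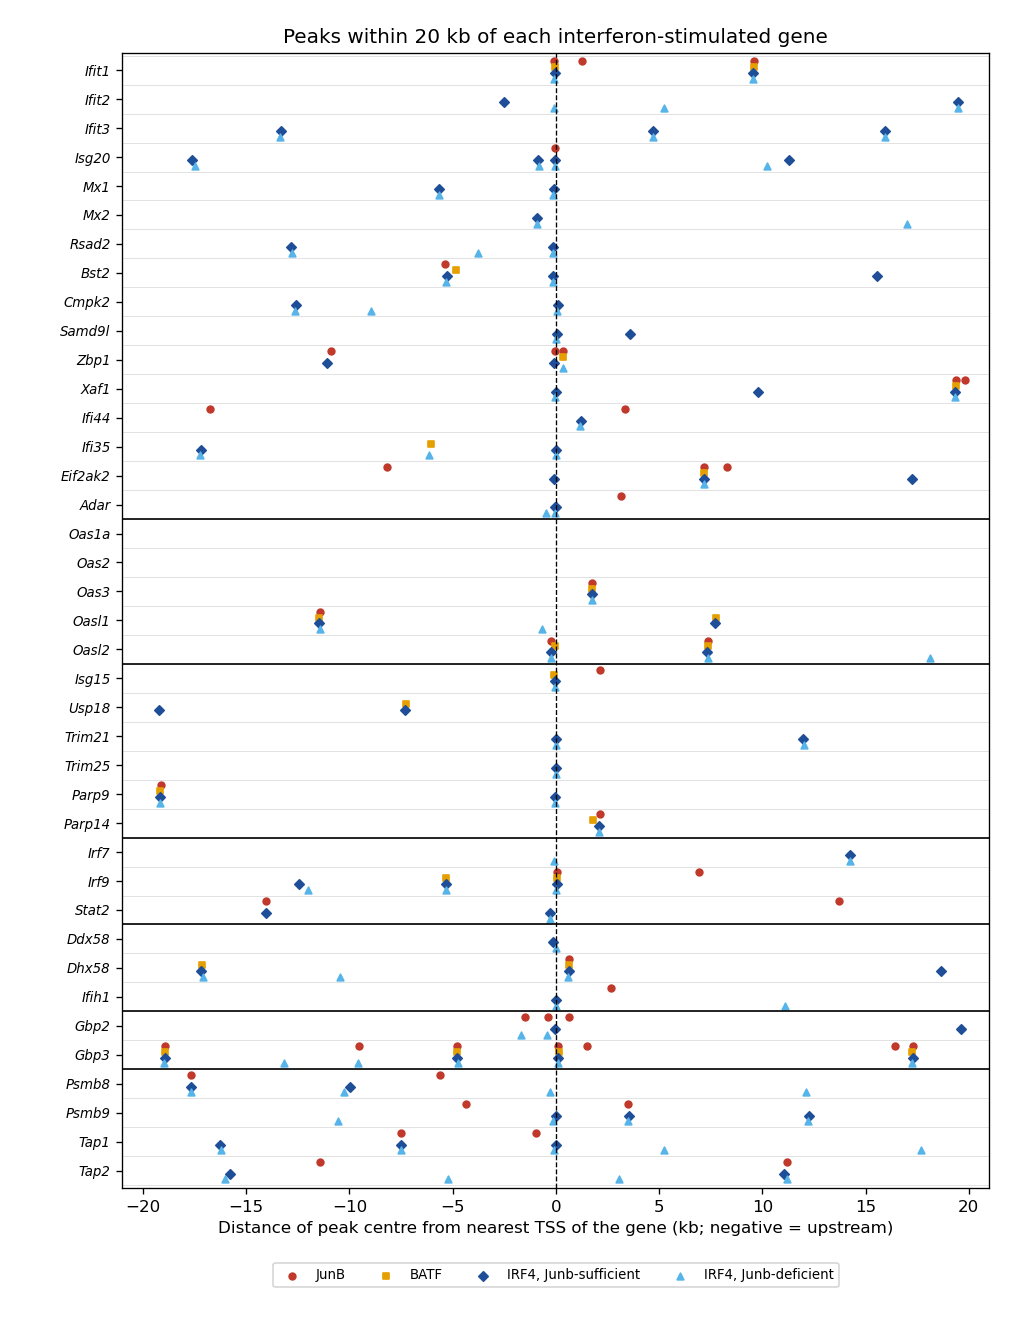
Every peak within 20 kb of each interferon-stimulated gene, plotted by the distance of its centre from the nearest TSS of that gene (horizontal axis, kb, negative upstream), with 1 row per gene, genes grouped by role between the black lines, and symbols marking the list. IRF4 peaks of both genotypes lie at the dashed line, which marks the TSS, in most rows, and the rows of Oas1a and Oas2 are empty.

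The peak combination varied from gene to gene. A peak in all 4 lists was found near 14 ISGs (35.9%), beside 23.4% of all genes. For 11 ISGs (28.2%, beside 16.3%) there was an IRF4 peak in both genotypes with no JunB or BATF peak, and these were Mx1, Mx2, Ifit2, Ifit3, Rsad2, Cmpk2, Samd9l, Trim21, Trim25, Irf7 and Ddx58. Oas1a and Oas2 had no peak in any list (5.13%, beside 27.7%). No ISG had a JunB peak without an IRF4 peak in either genotype, a pattern that 5.62% of all genes had.

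Among the 11 ISGs with IRF4 peaks only, Trim25 and Ddx58 had 1 in each genotype, Mx1 and Trim21 had 2 and Ifit3 had 3. Mx2 and Irf7 had 1 in *Junb*-sufficient and 2 in *Junb*-deficient cells, and Rsad2, Cmpk2 and Ifit2 had 2 and 3. Samd9l had 2 and 1, and was the only gene of this group with fewer peaks in *Junb*-deficient cells. Of the 14 ISGs with all 4 lists, Isg15, Oas3 and Parp14 had 1 peak in each. Parp9 had 1 JunB and 1 BATF peak with 2 IRF4 peaks in each genotype, Irf9 had 2 and 2 with 3, and Dhx58 had 1 and 2 with 3. The remaining ones were richer in 1 of the lists and are described with their roles. JunB without BATF was found at 10 ISGs, namely Isg20, Ifi44, Adar, Stat2, Ifih1, Gbp2, Psmb8, Psmb9, Tap1 and Tap2. The last 4 of these lie in 1 cluster that held 3 JunB peaks. BATF without JunB was found at Usp18 and Ifi35 only. The share of all genes with either pattern was not computed.

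The antiviral effectors, 16 genes, held 33 *Junb*-sufficient and 31 *Junb*-deficient IRF4 peaks, 16 JunB peaks and 7 BATF peaks. Ifit1, whose product binds viral RNA lacking a host-type cap, had 3 JunB, 2 BATF and 2 IRF4 peaks. Its promoter peak, 62 bp upstream of the TSS over the ISREs printed above, stood at place 2954 of the *Junb*-sufficient IRF4 list and at place 641 of the *Junb*-deficient one. The neighbouring Ifit2 and Ifit3, of the same family, had no JunB or BATF peak at all. Ifit3 had 3 IRF4 peaks, all listed in both genotypes, but none within 1 kb of its TSS. Ifit2 had a peak 99 bp upstream of its TSS in *Junb*-deficient cells only, and a peak 2514 bp upstream in *Junb*-sufficient cells only.

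Mx1 and Mx2 belong to a gene family of GTPases known to act against RNA viruses. Each had an IRF4 peak upstream of the TSS in both genotypes, at 87 bp for Mx1 and 893 bp for Mx2 in *Junb*-sufficient cells. Rsad2 (viperin) and Cmpk2, which lie side by side on chromosome 12, shared their peaks and had neither JunB nor BATF. The promoter peak of Rsad2 moved from place 13165 to place 8700 between the *Junb*-sufficient and *Junb*-deficient lists, and that of Cmpk2 from 26250 to 7900. Both stood higher in the *Junb*-deficient list.

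Zbp1, a sensor of Z-form nucleic acid, had 3 JunB, 1 BATF and 2 IRF4 peaks, with one of the highest-placed IRF4 peaks of the ISGs at its promoter, at place 1095, with JunB peaks 64 bp upstream and 358 bp downstream of the TSS. Xaf1, which promotes apoptosis, had 2 JunB, 1 BATF and 3 IRF4 peaks, among them the highest-placed ISG peak in 3 lists, 19 kb downstream of its TSS and nearest to the TSS of another gene, Fbxo39. This peak stood at place 144 for JunB, 44 for BATF and 551 for IRF4, and at 1849 in *Junb*-deficient cells. At the Xaf1 promoter itself only IRF4 peaks were listed. Isg20, an exonuclease, had 4 IRF4 peaks in each genotype, with a JunB peak at its promoter. Bst2 (tetherin), which holds budding virus at the cell surface, had 1 JunB and 1 BATF peak at an intergenic site about 5 kb upstream. There they met an IRF4 peak listed in both genotypes. At the Bst2 promoter an IRF4 peak lay alone.

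The remaining effectors mostly had IRF4 alone at the promoter. Adar, an RNA-editing enzyme, had 2 promoter IRF4 peaks in each genotype, with the 1 JunB peak 3154 bp downstream in an intron. Ifi35, with 2 *Junb*-sufficient and 3 *Junb*-deficient IRF4 peaks, and Samd9l had IRF4 peaks at their TSSs in both genotypes. Eif2ak2, the double-stranded RNA-dependent kinase PKR, had 3 JunB, 1 BATF and 3 IRF4 peaks but 1 *Junb*-deficient IRF4 peak. It had a promoter IRF4 peak near the end of the *Junb*-sufficient list, at place 29058 of 31093, and none in the *Junb*-deficient list. Its intronic site 7190 bp downstream, with JunB and BATF, was listed in both genotypes but stood at 34.3% of the *Junb*-sufficient list and at 80.1% of the *Junb*-deficient list. Ifi44 had a single IRF4 peak in each genotype, 1197 bp downstream of the TSS, with 2 JunB peaks elsewhere.

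The 2-5A synthetase family, whose members make the activator of RNase L or are related to those that do, was uneven. Oas1a and Oas2 had no peak, and the promoter ISRE of Oas2 was printed above. Oas3 had 1 peak in each of the 4 lists at an intronic site about 1.7 kb downstream of the TSS, at place 1740 for JunB and 12915 of 13570 for BATF. Oasl2 had all 3 factors both at its promoter and 7335 bp downstream. The downstream site stood at 10.0% of the *Junb*-sufficient IRF4 list and at 74.3% of the *Junb*-deficient list, the widest fall among ISGs. Oasl1 shared this site. Its IRF4 peak 7729 bp downstream, with BATF, was listed in *Junb*-sufficient cells only at place 15865. It had a promoter IRF4 peak, 683 bp upstream, in *Junb*-deficient cells only.

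Genes of protein modification included Isg15, a ubiquitin-like protein, and Usp18, the protease that removes it and restrains interferon receptor signalling. Isg15 had an IRF4 peak at its promoter, with BATF, at place 8356 in *Junb*-sufficient and 1980 in *Junb*-deficient cells. Its JunB peak lay 2142 bp downstream and did not meet it. Usp18 was the only ISG with IRF4 peaks in *Junb*-sufficient cells and none in *Junb*-deficient cells. It was also the only ISG with every *Junb*-sufficient IRF4 peak lacking a *Junb*-deficient counterpart (2.56%, beside 10.9% of all genes). The latter share also counts genes with other *Junb*-deficient IRF4 peaks. The nearer Usp18 IRF4 peak lay 7298 bp upstream of the TSS with BATF, at place 9438. It held 3 overlapping ISRE matches within a simple repeat of GAAAGA, 60 to 72 bp from its centre. The other Usp18 IRF4 peak lay 19228 bp upstream at place 15062. Trim21 and Trim25, ubiquitin ligases, had IRF4 peaks at the TSS in both genotypes and no JunB or BATF. Parp9 had a promoter IRF4 peak alone and a site with all 3 factors about 19 kb upstream, and Parp14 such a site about 2 kb downstream in an intron.

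Of the transcription factors, Irf9 had all 3 factors at its TSS, with IRF4 at 29.3% of the *Junb*-sufficient list and 16.8% of the *Junb*-deficient list. Stat2, its partner in ISGF3, had an IRF4 peak alone 305 bp upstream in both genotypes. A distal IRF4 peak shared with JunB 14055 bp upstream, nearest to the TSS of Apon, was not listed in *Junb*-deficient cells. Irf7, the amplifier of interferon-alpha genes, had neither JunB nor BATF within 20 kb. Its promoter IRF4 peak, over the ISRE printed above, was listed in *Junb*-deficient cells only, at place 8839. Among the RNA sensors, Ddx58 (RIG-I) and Ifih1 (MDA5) had an IRF4 peak alone at the TSS in both genotypes, and Ifih1 a JunB peak 2664 bp downstream. Dhx58 (LGP2), a related helicase, had a site of all 3 factors in an intron 635 bp downstream.

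The guanylate-binding proteins act on intracellular pathogens and include the ISG with the most JunB peaks. Gbp3 had 7 JunB peaks, a number reached by 0.868% of all protein-coding genes, with 4 BATF, 4 *Junb*-sufficient and 6 *Junb*-deficient IRF4 peaks. All 4 IRF4 peaks met a JunB and a BATF peak and all were listed in *Junb*-deficient cells. The Gbp3 promoter peak stood at place 1215 of the *Junb*-sufficient IRF4 list and 662 of the *Junb*-deficient one. Gbp2 had 3 JunB peaks but no BATF peak. Its *Junb*-sufficient promoter IRF4 peak, centred 33 bp upstream over the promoter ISRE, stood at place 3489. The overlapping *Junb*-deficient peak, at place 1632, was centred 444 bp upstream and did not cover this ISRE. With its minimum distance of 1210 bp between peaks, the caller could not list another *Junb*-deficient peak over this ISRE. A second Gbp2 IRF4 peak, 19643 bp downstream, was listed in *Junb*-sufficient cells only at place 17381.

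Psmb8 and Psmb9, subunits of the immunoproteasome, and Tap1 and Tap2, which carry peptides into the endoplasmic reticulum, lie together in the major histocompatibility complex on chromosome 17. This cluster held 3 JunB peaks, no BATF peak, 4 *Junb*-sufficient and 6 *Junb*-deficient IRF4 peaks, and none of the 4 was missing in *Junb*-deficient cells. Each gene had 2 JunB peaks within 20 kb, and 2 (Psmb8 and Tap2) or 3 (Psmb9 and Tap1) *Junb*-sufficient IRF4 peaks. The shared promoter of Psmb9 and Tap1 had an IRF4 peak in both genotypes. The site 3.5 kb downstream of Psmb9, with JunB, rose from 43.3% to 9.69% of the list, counting from its head. Psmb8 had a promoter IRF4 peak, 307 bp upstream of a TSS at place 4520, in *Junb*-deficient cells only.

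The overlap of IRF4 with JunB at ISGs was close to that elsewhere. Of the 67 *Junb*-sufficient IRF4 peaks, 23 met a JunB peak by at least 1 bp (34.3%, 23.2 to 46.9), beside 36.1% of IRF4 peaks near any protein-coding gene. Those meeting both JunB and BATF numbered 17 (25.4%, beside 25.4%), and 39 were IRF4 alone (58.2%, beside 54.3%). Of the 41 JunB peaks, 15 met both BATF and IRF4 (36.6%, beside 33.9%). All these intervals held the share over all genes. With BATF and IRF4 exchanged, 69.6% of IRF4 peaks met JunB, beside 68.9%, and in the first 50% of each list 14.0% met both, beside 30.5%, while 21.7% of JunB peaks met both others, beside 37.1%. Of the 23 BATF peaks, 16 met JunB and IRF4 (69.6%, beside 63.9%) and 6 met IRF4 without JunB (26.1%, beside 24.1%), shares close to those over all genes, and the 1 BATF peak alone (4.35%, beside 7.05%) was a BATF peak 6061 bp upstream of Ifi35.

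ISRE matches were frequent in the IRF4 peaks of ISGs. Within 100 bp of the centre, 26 of 67 *Junb*-sufficient IRF4 peaks held a match (38.8%, 27.1 to 51.5), beside 8.55% of IRF4 peaks near any protein-coding gene. Among those within 1 kb of a TSS it was 15 of 28 (53.6%, beside 5.73%), and among those farther away 11 of 39 (28.2%, beside 9.72%). The *Junb*-deficient list gave 26 of 68 (38.2%, beside 10.4%), JunB peaks 10 of 41 (24.4%, beside 6.50%) and BATF peaks 6 of 23 (26.1%, beside 8.92%). The list of ISGs holds many genes known for promoter ISREs, so these shares describe the list and were not tested.

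The AP-1 element, searched as TGAGTCA or TGACTCA, whose reverse complements are each other, had shares near those elsewhere. It lay within 100 bp of the centre of 17 of 67 IRF4 peaks (25.4%), beside 23.6%, and of 11 of 41 JunB peaks (26.8%), beside 27.4%. The AICE was found in 2 of the 67 (2.99%, beside 3.46%), near Dhx58 and Eif2ak2, where its AP-1 part overlaps the AP-1 match. Among JunB peaks, 0 of 41 held an AICE, which allows a share of up to 8.60% by the exact interval, beside 3.88%.

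**Figure D3:**
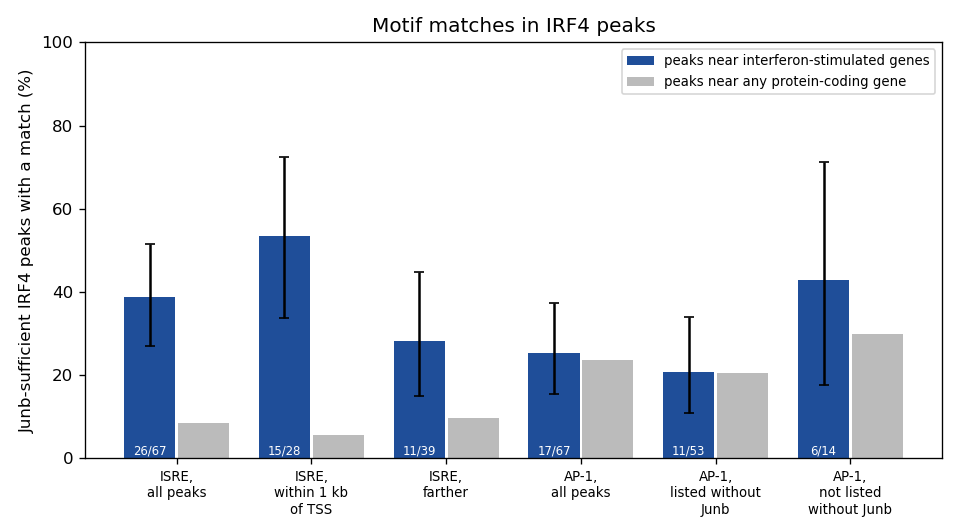
Percentage of the *Junb*-sufficient IRF4 peaks that held a motif match within 100 bp of the centre (vertical axis), for peaks near interferon-stimulated genes and near any protein-coding gene, with all peaks, split by distance from the TSS (ISRE) or by whether the peak was also listed in *Junb*-deficient cells (AP-1). Error bars are exact 95% intervals over peaks and the figures in the bars are counts. The ISRE share within 1 kb of a TSS was 53.6% beside 5.73%.

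Most IRF4 peaks of ISGs were listed in both genotypes. Of the 67 *Junb*-sufficient peaks, 14 had no *Junb*-deficient peak overlapping by 1 bp (20.9%, 11.9 to 32.6), beside 33.6% of IRF4 peaks near any protein-coding gene. By gene, 12 of 39 ISGs had at least 1 such peak (30.8%), beside 30.3%. In the other direction, 15 of the 68 *Junb*-deficient peaks had no *Junb*-sufficient counterpart (22.1%, 12.9 to 33.8), beside 30.5%. With peaks matched by centres within 100 bp in place of overlap, 32.8% of the 67 and 33.8% of the 68 lacked a counterpart, beside 45.1% and 42.6%, and with BATF and IRF4 exchanged 8.70% and 69.1%, beside 25.0% and 68.8%. With lists of equal length, 36.2% of *Junb*-deficient peaks lacked a counterpart, beside 33.7%, which turns the order of the reported shares. A peak absent from a list did not reach the caller's threshold, failed its local filter or lay too close to a listed peak. None of these is the same as absence of IRF4, and with 1 library per genotype no test between genotypes was possible.

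Matched by overlap of 1 bp, the absent peaks lay mostly away from the promoters. Within 1 kb of a TSS of an ISG, 1 of 28 IRF4 peaks was absent from the *Junb*-deficient list (3.57%, 0.0904 to 18.3), beside 24.7%, and this was the low-placed peak of Eif2ak2. Farther away it was 13 of 39 (33.3%, beside 37.2%). Some promoter peaks counted as listed in both genotypes had centres far apart. In *Junb*-sufficient and *Junb*-deficient cells these lay 14 bp downstream and 493 bp upstream at Adar, and 33 and 444 bp upstream at Gbp2. At Zbp1 they lay 106 bp upstream and 348 bp downstream. The promoter split was not computed with matching by centres. Among peaks that met JunB, 2 of 23 were absent (8.70%, beside 23.3%), and among the rest 12 of 44 (27.3%, beside 39.4%). The 2 absent peaks that met JunB lay upstream of Stat2 and Zbp1, but nearest to the TSSs of other genes, Apon and Pmepa1. The absent share differed by place in the list too. In the first 50% of the *Junb*-sufficient list 4 of 43 were absent (9.30%, beside 18.4%) and in the remainder 10 of 24 (41.7%, beside 48.0%). Since 43 of the 67 ISG peaks stood in the first 50%, beside 48.7% of peaks near all genes, the part of list place in the lower share at ISGs was not tested.

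**Figure D4:**
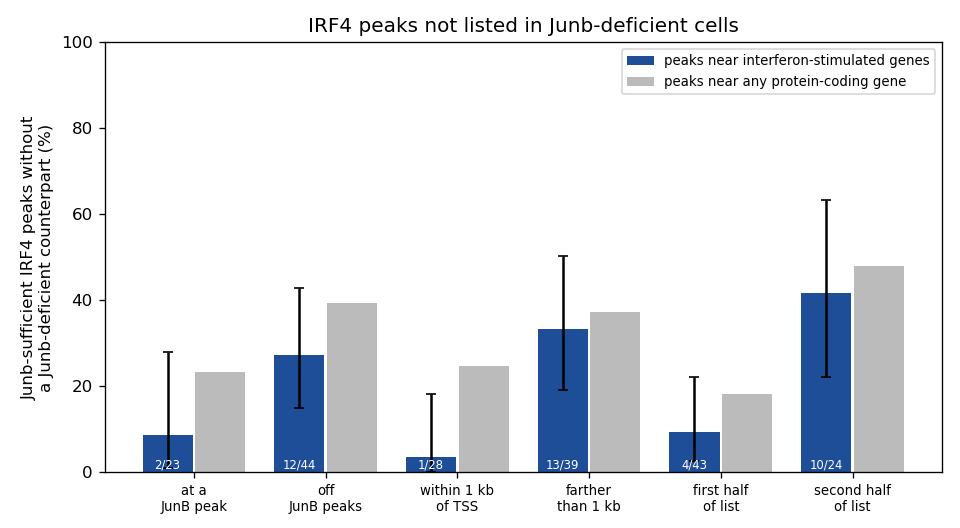
Share of *Junb*-sufficient IRF4 peaks without an overlapping *Junb*-deficient IRF4 peak (vertical axis, percent), by overlap with JunB, by distance from the TSS and by place in the *Junb*-sufficient list, for peaks near interferon-stimulated genes and near any protein-coding gene. Error bars are exact 95% intervals over peaks and the figures in the bars are counts. Within 1 kb of the TSS 1 of 28 peaks lacked a counterpart, and 13 of 39 farther away.

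An AP-1 match was held by 6 of the 14 absent peaks (42.9%, 17.7 to 71.1), beside 29.8% of absent peaks near all genes, and by 11 of the 53 listed in both genotypes (20.8%, beside 20.5%). The intervals overlap. All 6 lay more than 1 kb from a TSS of an ISG, in introns or between genes, and their AP-1 elements, in capitals on the plus strand of mm9, show the element that these distal peaks held.
Stat2 (chr10:127693537-127693567): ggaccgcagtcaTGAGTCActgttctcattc
Xaf1 (chr11:72124959-72124989): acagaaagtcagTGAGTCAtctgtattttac
Samd9l (chr6:3345967-3345997): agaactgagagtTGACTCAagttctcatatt
Dhx58 (chr11:100539275-100539305): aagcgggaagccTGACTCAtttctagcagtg
Isg20 (chr7:86070377-86070418): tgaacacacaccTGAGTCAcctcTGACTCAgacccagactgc
Eif2ak2 (chr17:79241066-79241096): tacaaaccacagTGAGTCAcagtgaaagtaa
A further match of the Stat2 peak lay outside the printed window. Of these only the Stat2 peak met a JunB peak. The Dhx58 and Eif2ak2 sites lay in introns of the neighbouring genes Zfp385c and Ccdc75.

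IRF4 peaks of ISGs stood higher in the *Junb*-deficient list. The lists appear to be ordered by peak strength, but their headers do not name the order, so places are given as a description. Neighbouring *Junb*-sufficient peaks held consecutive places at Stat2 (9466 and 9467) and Eif2ak2 (29057 and 29058). Some places may thus be ties ordered by position, and small shifts of place may not reflect strength. The median place of ISG peaks was 42.3% of the way down the *Junb*-sufficient list and 32.5% down the *Junb*-deficient list, beside 51.3% and 51.0% for peaks near any protein-coding gene. In the first 50% of the *Junb*-deficient list stood 51 of 68 ISG peaks (75.0%, 63.0 to 84.7), beside 48.9%.

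Of the 53 IRF4 peaks listed in both genotypes, 37 stood higher in the *Junb*-deficient list (69.8%), beside 49.5% of such peaks near all genes. The median change of place was -6.10 percentage points, that is, towards the head of the list, beside 0.109 for all. Off JunB peaks 24 of 32 stood higher (75.0%, beside 56.4%), and at JunB peaks 13 of 21 (61.9%, beside 39.8%). Within 1 kb of a TSS it was 21 of 27 (77.8%, beside 53.3%).

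Shifts of more than 20 points towards the head of the list were seen at 8 of the 53 peaks (15.1%, beside 12.4% of such peaks near all genes) and towards its end at 3 (5.66%, beside 14.1%). The promoter peak of Cmpk2 went from 84.4% to 27.2% and that of Isg15 from 26.9% to 6.82%. The distal peak of Irf7, in an intron of Phrf1, went from 75.1% to 47.9%, and the Ifi44 peak from 87.2% to 61.2%. The 3 peaks that fell were the downstream site of Oasl2, the intronic site of Eif2ak2 and an intronic peak of Ifit2, which went from 54.7% to 84.7%. The first 2 of these met JunB and BATF, and the Ifit2 peak met neither.

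**Figure D5:**
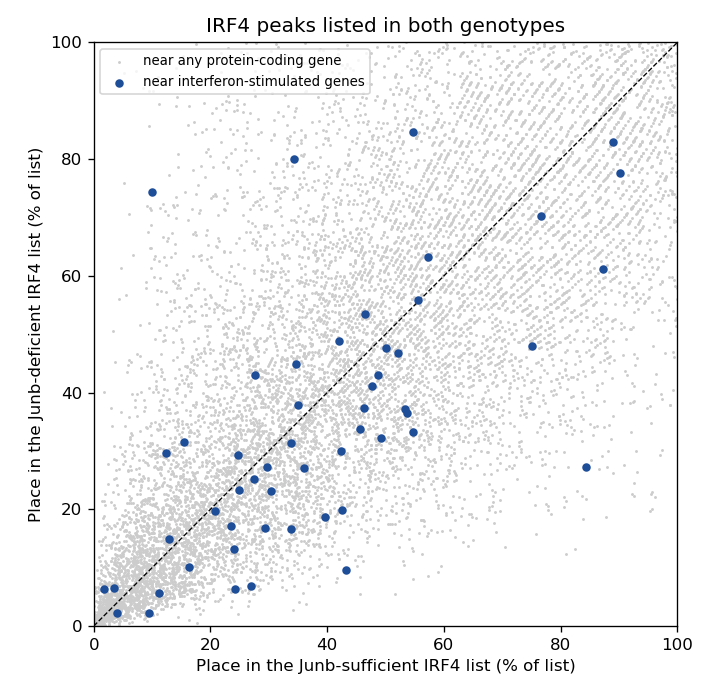
Place of each IRF4 peak listed in both genotypes in the *Junb*-sufficient list (horizontal axis) and in the *Junb*-deficient list (vertical axis), as percent of the list counted from its head, for 53 peaks near interferon-stimulated genes and 11783 near any protein-coding gene. The dashed line marks equal places, and 37 of the 53 points lie below it, that is, higher in the *Junb*-deficient list.

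Promoter peaks without a *Junb*-sufficient counterpart were found at Ifit2, Irf7, Oasl1 and Psmb8. They made up 4 of 31 *Junb*-deficient IRF4 peaks within 1 kb of an ISG TSS (12.9%, 3.63 to 29.8), beside 30.5%. The other 11 lay among 37 peaks farther away (29.7%, beside 30.4%). The highest-placed of these 15 beyond the promoters lay upstream of Gbp2, Gbp3 and Rsad2, and at Ifi35, where the peak, at place 9769 of the *Junb*-deficient list, met a BATF peak. The Rsad2 peak, 3788 bp upstream at place 8197, held 2 ISRE matches, and Gbp3 had another 13167 bp upstream at place 9516. Of the 15, the 2 peaks upstream of Gbp2 and Gbp3 met a JunB peak of *Junb*-sufficient cells (2.94% of 68, beside 2.58%). At Gbp2 the peak lay 1700 bp upstream at place 2347, and at Gbp3 9583 bp upstream at place 8134.

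A list of 24 genes of interferon signalling, holding receptors, kinases, factors, sensors and interferons, was read for comparison. An IRF4 peak lay near 23 of them in *Junb*-sufficient and near 23 in *Junb*-deficient cells (95.8% each, beside 60.4% and 59.9% of all genes). A JunB peak lay near 19 (79.2%, beside 42.1%) and a BATF peak near 15 (62.5%, beside 30.3%). An ISRE match was held by 7 of their 63 IRF4 peaks (11.1%, 4.59 to 21.6, beside 8.55%), whose interval lies below that of ISGs. Absent from the *Junb*-deficient list were 21 of 63 (33.3%, 22.0 to 46.3, beside 33.6%), whose interval overlaps that of ISGs. Both intervals held the share over all genes. A promoter ISRE was found in 3 of the 24 genes (12.5%, beside 7.99%). Jak1, a kinase of both kinds of interferon receptor, had 11 JunB peaks and 9 IRF4 peaks, of which 6 were absent in *Junb*-deficient cells.

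The 4 libraries held between 21127029 and 27399986 tags, with the fewest in the *Junb*-deficient IRF4 library. JunB peaks were listed at a width of 151 bp, and the other lists at 605 to 613 bp. A minimum of 19 tags was required for BATF and both IRF4 libraries and of 10 for JunB. The caller's minimum distance between peaks was 1224 bp for BATF and *Junb*-sufficient IRF4, 1210 bp for *Junb*-deficient IRF4 and 300 bp for JunB. The local filter, which removes peaks less than 4-fold above the surrounding 10 kb, took 36.2% to 37.4% of candidate peaks from BATF and IRF4 and 5.25% from JunB, so that closely spaced sites of the former may be absent from the lists.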

How the data were processed

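ChIP-seq peak lists of JunB, BATF and IRF4 in *Junb*-sufficient and of IRF4 in *Junb*-deficient Treg cells were analysed, 1 library each. The study was described as done more than once, but 1 list per condition was used here. Reads were mapped by the authors to the mm9 build (Bowtie2, uniquely placed reads), and each library was searched for peaks with HOMER (4.8 per the labels) at a false discovery rate of 0.001, 4-fold over the local 10 kb and at most 1 tag per bp. The recorded command names no control library. The deposited score is 1 for every peak and was not used. The place in the list was used as a description only.

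Peak centres were assigned to all annotated TSSs of protein-coding genes (GENCODE vM1, NCBIM37) within 20 kb. Shared peaks overlapped by at least 1 bp. Motifs were matched within 100 bp of the centre. Sequences were read from the NCBIM37 reference. Shares carry exact Clopper-Pearson 95% intervals, which cover counting over genes or peaks only, since tag counts per peak were not used. Members and gene lists were chosen with earlier results of these data known. All members were named, with positions for peaks within 1 kb of a TSS, triple sites and the highest-placed peaks listed in 1 genotype only. Jak1 and the distal AP-1 sites were named after their values were seen. Python 3.11.15, NumPy 2.4.6, SciPy 1.17.1, pysam 0.24.0 and matplotlib 3.10.9 were used, and the procedures were tested on simulated data. Alternatives were other distances, the nearest or outermost TSS only, the first 50% of each list, equal list lengths, matching by centre, a narrower motif window and exchange of BATF and IRF4.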

Additional observations from a re-analysis of the deposited data

How the results depend on the processing

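Over 108 values from alternatives, 82 moved by less than the interval of the reported value and 26 by more. The shares of ISGs with an IRF4 peak in either genotype, of IRF4 peaks with an ISRE and of IRF4 peaks absent without *Junb* stayed on the same side of the share over all genes in every alternative run. The overlap of IRF4 with JunB, with both factors, and the AP-1 share changed side in some, so no direction is given for them. The same holds for JunB peaks that met BATF and IRF4 and for *Junb*-deficient IRF4 peaks without a counterpart. With a distance of 100 kb, JunB peaks were found near 94.9% of ISGs, BATF near 76.9%, IRF4 near 100% in either genotype, and ISREs in 21.3% of IRF4 peaks, and with 50 kb JunB near 82.1%. With the nearest TSS only, JunB was near 43.6% and IRF4 near 82.1%. With the first 50% of each list, JunB was near 43.6%, BATF near 17.9% and IRF4 near 82.1% of ISGs, 14.0% of IRF4 peaks met JunB and BATF, and 21.7% of JunB peaks met BATF and IRF4. With lists of equal length, JunB was near 38.5%, IRF4 near 71.8% and *Junb*-deficient IRF4 near 76.9%, and 36.2% of *Junb*-deficient peaks lacked a counterpart. With centres within 100 bp, 32.8% of *Junb*-sufficient and 33.8% of *Junb*-deficient IRF4 peaks lacked a counterpart. With BATF and IRF4 exchanged, BATF was near 94.9% and IRF4 near 41.0%, 69.6% of IRF4 peaks met JunB and 69.6% met both, 8.70% were absent without *Junb*, 69.1% of *Junb*-deficient peaks lacked a counterpart, and 26.1% held an ISRE.

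Widened JunB peaks and counting each locus once were chosen after seeing the data, and neither moved a value beyond its interval. No paired analysis was possible because each condition had 1 library. Depth limits the weakest peaks most, and no tag counts per peak were used to show by how much.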
